A study of Homo sapiens with 20 samples.

Results

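The hexokinase family was followed through RNAseq and ATACseq of HL60 cells, taking every row whose gene symbol was HK1, HK2, HK3 or HKDC1. These are 4 of the 28051 named genes of the RNAseq files. The same symbols were looked up in the gene annotation of 8286 ATACseq regions, of which 1 lists a member, HK2. HL60 is an established human AML line that matures towards neutrophils in ATRA, a retinoid. Cells labelled HK3-null and control cells expressing Cas9 were kept for 36 h in 1 µM ATRA or in 0.01% DMSO, the diluent, with 3 RNAseq and 2 ATACseq libraries in each of the 4 groups. Knockout cells were made with the lentiviral vector lentiCRISPRv2, which carries Cas9 and puromycin resistance, and were grown from single cells by limiting dilution. Every HK3-null library carries the same knockout label, so whether replicates stem from separate clones is not known and p values may cover the spread between cultures only.

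Hexokinases phosphorylate glucose to glucose 6-phosphate, which then enters glycolysis, the pentose phosphate pathway or glycogen. HK1 is the housekeeping form and HK2 the form raised in proliferating and tumor cells, and both can sit on the outer mitochondrial membrane through VDAC proteins. HK3 lacks the mitochondrial binding sequence and is found mainly in myeloid cells. HKDC1 is a more recently described member next to HK1 in the genome.

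On GRCh38, HK2 lies on chromosome 2 from 74834127 to 74893359 on the plus strand and HK3 on chromosome 5 from 176880869 to 176899346 on the minus strand. HKDC1, from 69220332 to 69267552, and HK1, from 69269984 to 69401884, follow each other on the plus strand of chromosome 10. The 250 bases upstream of HK2 and HK3 are shown because these genes moved in opposite directions with ATRA. They were taken from RefSeq promoters (GRCh38.p14) and read in the direction of the gene. Capitals mark matches, on either strand, to GAGGAA (core of sites for PU.1, encoded by SPI1), AGGTCA (half-site of retinoic acid receptors), TTGCNNAA (C/EBP), CACGTG (MYC) or ACGTG (HIF), of which the last lies inside the MYC motif.
HK3 upstream, chr5:176899347-176899596, minus strand: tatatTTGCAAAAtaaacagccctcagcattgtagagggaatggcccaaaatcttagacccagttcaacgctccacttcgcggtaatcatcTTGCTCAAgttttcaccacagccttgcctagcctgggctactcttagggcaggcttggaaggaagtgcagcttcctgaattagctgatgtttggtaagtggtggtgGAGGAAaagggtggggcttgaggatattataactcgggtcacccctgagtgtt
HK2 upstream, chr2:74833877-74834126, plus strand: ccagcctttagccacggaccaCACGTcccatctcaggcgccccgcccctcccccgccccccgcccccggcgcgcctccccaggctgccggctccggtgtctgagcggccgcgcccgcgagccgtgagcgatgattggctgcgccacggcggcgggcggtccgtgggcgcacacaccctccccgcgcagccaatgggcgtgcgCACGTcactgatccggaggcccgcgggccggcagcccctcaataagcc

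The HK3 window held 1 GAGGAA match, which begins 53 bases before the start, and 2 TTGCNNAA matches, at 245 and 159 bases before it. Of 34788 distinct RefSeq windows of the same length, 23.6% held GAGGAA and 9.05% held TTGCNNAA. The HK2 window held 2 ACGTG matches, at 229 and 48 bases before the start, against 18.5% of all windows with at least 1. Its GC content was 76.8%, against 48.4% in the HK3 window. Neither window held AGGTCA or CACGTG, which 12% and 6.31% of windows held. The HK1 window, not printed here and set 16 bases from the canonical start, held 2 AGGTCA matches, at 176 and 139 bases before its start, and the HKDC1 window held none of the motifs. Such matches describe letters only and do not show binding.

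RNAseq values were the log2 of counts that the authors had scaled between libraries and rounded, called normalized counts here, and they summed to 29056349 to 31549781 per library. One library, Cas9 control DMSO replicate 1, had 16750 genes above 0 against 15031 to 15801 in the others. The promyelocytic markers MPO, ELANE, AZU1, PRTN3, CD33 and SPI1 were present in all libraries and summed to 550073 to 824412 normalized counts. The 11 markers of erythroid, T, B and NK cells and megakaryocytes summed to 50 to 148, and HBA1, MS4A1 and PF4 were at 0 throughout. The 6 ATRA response markers rose in both genotypes, with sums of 33 to 44 in Cas9 control DMSO, 8531 to 9323 in Cas9 control ATRA, 516 to 575 in HK3-null DMSO and 40374 to 49414 in HK3-null ATRA. Most of the genotype difference in ATRA came from TGM2, with a mean of 33889 in HK3-null against 1047 in Cas9 control. CD38, ITGAM and DHRS3 were closer, at 7178, 1739 and 1655 against 5509, 1134 and 1292. CYP26A1 and RARB added few counts in any group. The HK3-null DMSO sum was mostly ITGAM and CD38, with means of 349.7 and 191. In bulk RNA, a change in the number of maturing cells and a change in RNA per cell cannot be told apart.

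ATRA lowered HK2 RNA and raised HK3 RNA in both genotypes. HK1 rose with ATRA in HK3-null and did not pass in Cas9 control, a difference between genotypes that itself did not pass. Fitted with limma over 13256 genes, 2 of the 3 tested members passed at an adjusted p under 0.05 in Cas9 control, where 41.6% of all tested genes passed (20.3% higher and 21.3% lower), and 3 of 3 in HK3-null, where 49.0% passed. Between genotypes in DMSO, HK3 was higher and HK1 lower in libraries labelled HK3-null, and 2 of 3 members passed, against 55.0% of all genes. In ATRA 1 of 3 passed, against 59.1%. A gene was called if it passed and changed at least 2-fold. With ATRA, HK2 and HK3 were called in Cas9 control, where 9.63% of all genes were (6.84% higher), and all 3 in HK3-null, where 14.1% were (8.06% higher and 6.05% lower). Between genotypes, HK1 and HK3 were called in DMSO, against 19.3% of all genes, and none of the 3 in ATRA, against 21.3%.

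**Figure D1:**
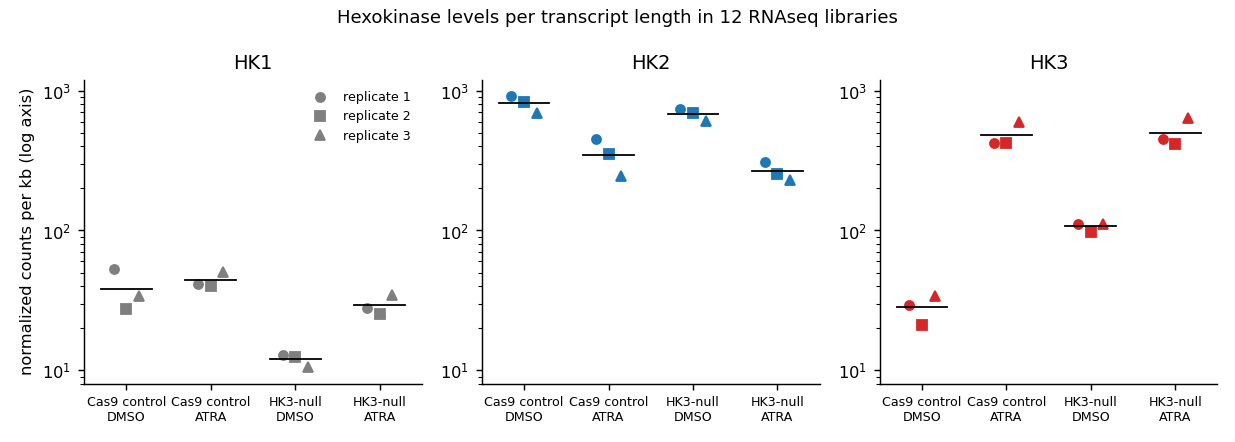
Normalized counts per kb of transcript (log axis) of HK1, HK2 and HK3 in the 12 RNAseq libraries by group, with a symbol for each replicate number and a line at the group mean. HK2 sat lower and HK3 higher in each ATRA group than in the DMSO group of the same genotype, and HK1 was lowest in HK3-null DMSO.

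HK3, the targeted gene, was compared first. Per kb of its canonical transcript, its level in DMSO was 29.2, 21.1 and 34.1 normalized counts in Cas9 control against 112, 98.0 and 112 in HK3-null libraries. With ATRA it reached 423, 421 and 600.3 in Cas9 control and 449, 417 and 641 in HK3-null. The DMSO groups did not overlap, while the ATRA groups did. HK3 RNA was thus not lower in libraries that carry the knockout label. Reads summed over all exons cannot show whether this RNA still codes for enzyme, so groups are named by label throughout. By the study's methods, knockouts were checked by sequencing the cut site and by mass spectrometry, which were not analysed here.

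HK3 rose with ATRA by 4.11 on the log2 scale in Cas9 control (standard error 0.21, adjusted p = 5.46e-08, limma), a 17.2-fold change. In HK3-null it rose by 2.20 (standard error 0.21, adjusted p = 5.31e-06, limma), a 4.61-fold change from a higher start. The interaction, the ATRA change in HK3-null minus that in Cas9 control, was −1.90 (standard error 0.29, adjusted p = 0.00202, limma), and 9.12% of all genes had an interaction past this threshold, 4.48% higher and 4.64% lower. HK3 was 3.88-fold higher in HK3-null than in Cas9 control in DMSO (log2 1.96, adjusted p = 1.11e-05, limma), whereas in ATRA the log2 difference was 0.05 (standard error 0.21, adjusted p = 0.836, limma).

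The genes beside HK3 did not share its genotype difference. Of the 5 protein-coding RefSeq genes on each side, 7 were tested, and their median log2 change between HK3-null and Cas9 control was −0.67 in DMSO and −0.54 in ATRA. The median over 541 tested genes of chromosome 5 was −0.75 in DMSO and −0.77 in ATRA, against −0.00 and 0.02 on chromosome 2 and 0.01 and 0.00 on chromosome 10. With this chromosome median subtracted, the HK3 difference in ATRA was 0.83 and passed (adjusted p = 0.00554, limma). In DMSO 4 of the 7 neighbours were lower and none was higher at an adjusted p under 0.05, where 27.1% of all genes were lower. TSPAN17, a tetraspanin, was called lower in both treatments, with log2 values of −2.65 in DMSO (adjusted p = 1.47e-07, limma) and −1.66 in ATRA (adjusted p = 5.38e-06, limma). With ATRA in HK3-null, TSPAN17 was called higher at 1.04 and the receptor FGFR4 lower at −1.72. UNC5A, a netrin receptor whose end overlaps that of HK3, had at most 1 normalized count in any library.

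**Figure D2:**
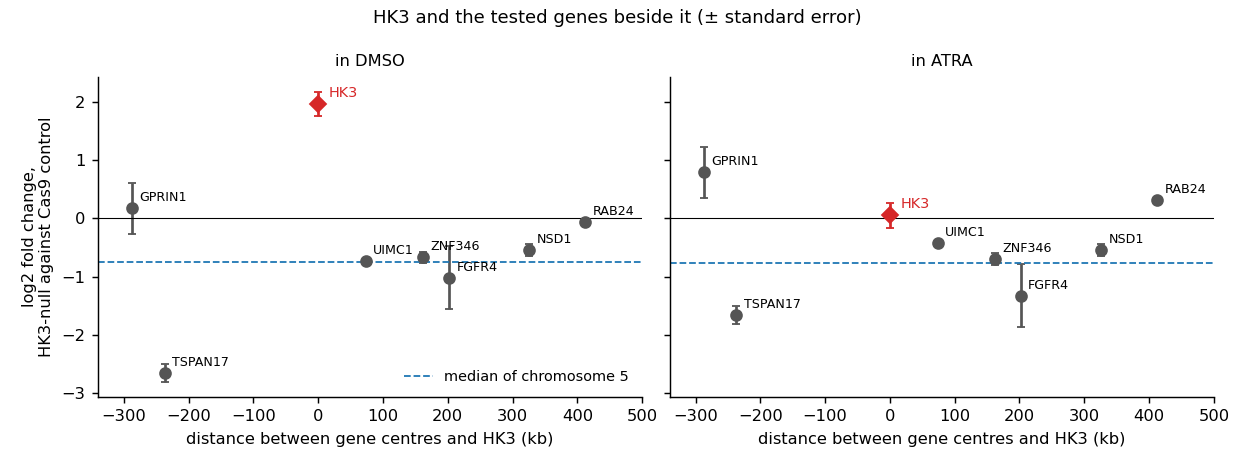
Log2 fold change of HK3-null against Cas9 control (± standard error) for HK3 and the 7 tested genes beside it, in DMSO and in ATRA, by distance between gene centres in kb, with the median of chromosome 5 as a dashed line. HK3 stood above all 7 neighbours in DMSO, while TSPAN17 lay lowest in both treatments.

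HK2 was the most abundant hexokinase RNA in DMSO. The 3 Cas9 control DMSO libraries had 5135, 4639 and 3924 normalized counts of it, and those of HK3-null DMSO 4161, 3882 and 3445. Cas9 control ATRA libraries had 2534, 1983 and 1385, and HK3-null ATRA libraries 1750, 1430 and 1297. Treatments did not overlap within a genotype, whereas genotypes overlapped within each treatment. In all 4 groups replicate 1 had the highest and replicate 3 the lowest HK2 count, and replicate 3 also had the highest HK3 count. HK2 was lower in HK3-null in each of the 6 pairs of libraries with the same treatment and number.

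HK2 fell 2.38-fold with ATRA in Cas9 control (log2 −1.25, standard error 0.19, adjusted p = 0.000364, limma) and 2.58-fold in HK3-null (log2 −1.37, standard error 0.19, adjusted p = 0.000126, limma). The interaction was −0.12 with a standard error of 0.27 (adjusted p = 0.865, limma). Between genotypes, HK2 differed by −0.25 in DMSO, with a standard error of 0.19 (adjusted p = 0.296, limma). In ATRA it differed by −0.37, with a standard error of 0.19 (adjusted p = 0.124, limma), and neither passed. With the replicate number as a block the same differences had adjusted p values of 0.0330 and 0.00439 (limma). Whether HK2 passes between genotypes thus depends on whether replicates are treated as paired. Without Cas9 control ATRA replicate 3 the difference in ATRA was −0.60 and passed (adjusted p = 0.00741, limma). Of the 10 neighbours of HK2, 7 were tested. In DMSO 5 were higher and none lower in HK3-null at an adjusted p under 0.05, where 27.9% of all genes were higher and 27.1% lower. In ATRA 4 were higher and 1 lower, where 29.6% and 29.5% of all genes were. In each treatment 2 were called higher, against 11.1% of all genes in DMSO and 11.4% in ATRA. The lysyl oxidase LOXL3 was called higher in HK3-null, with log2 values of 2.07 in DMSO and 2.15 in ATRA, and so was the meiosis gene M1AP, with 2.65 and 2.26. LOXL3 was also called higher with ATRA, by 1.12 in Cas9 control and 1.20 in HK3-null.

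HK1 was a minor member everywhere. Its normalized counts in Cas9 control were 192, 98 and 123 in DMSO and 149, 144 and 182 in ATRA, which overlap. In HK3-null they were 46, 45 and 38 in DMSO and 101, 91 and 125 in ATRA, without overlap. All HK3-null DMSO libraries lay below all others.

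The ATRA change of HK1 was 0.25 in Cas9 control (standard error 0.23, adjusted p = 0.419, limma) and 1.29 in HK3-null (standard error 0.23, adjusted p = 0.000727, limma), a 2.44-fold rise. The interaction of 1.04 did not pass (standard error 0.33, adjusted p = 0.0789, limma), and it passed with the replicate block (adjusted p = 0.0335, limma). HK1 was 3.09-fold lower in HK3-null than in Cas9 control in DMSO (log2 −1.63, standard error 0.23, adjusted p = 0.000111, limma). In ATRA the difference was −0.59 (standard error 0.23, adjusted p = 0.0469, limma). That difference no longer passed on leaving out any of 9 of the 12 libraries, with a highest adjusted p of 0.143 (limma). Each DMSO library of HK3-null and each ATRA library of Cas9 control was among the 9. Cas9 control DMSO replicate 1 was the library with the most genes above 0. Without that library, HK1 changed by 0.52 with ATRA in Cas9 control (adjusted p = 0.0626, limma). Between genotypes in DMSO, HK1 then differed by −1.36 (adjusted p = 0.000225, limma), and its interaction was 0.77 (adjusted p = 0.121, limma). Of the 10 neighbours of HK1, 4 were tested, and the helicase SUPV3L1 was called, lower with ATRA in HK3-null by −1.23. In that comparison 6.05% of all genes were called lower.

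**Figure D3:**
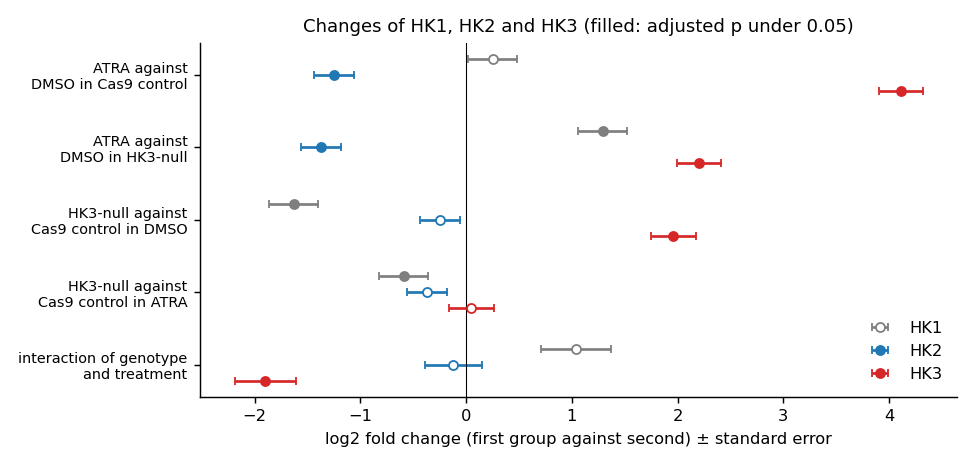
Log2 fold changes of HK1, HK2 and HK3 in the 4 comparisons and the interaction, with standard errors as bars and filled symbols at an adjusted p under 0.05 (limma, 12 libraries). HK3 had the largest rise with ATRA, HK2 was below 0 in both ATRA comparisons, and HK1 was below 0 in both genotype comparisons.

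HKDC1 was at 0 or 1 normalized count in all libraries and was too low for the fit. It was at 1, 0 and 1 in Cas9 control DMSO, at 0 in all 3 HK3-null DMSO libraries and at 1 in 1 library of each ATRA group. A count of 0 allows up to 3 counts before scaling, which covers counting error only. The neighbour of HKDC1 that is not also beside HK1, the RNA helicase DDX21, was called lower with ATRA in HK3-null, by −1.22.

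To set members beside each other, normalized counts were divided by the length of the canonical GENCODE transcript, 3602 bases for HK1, 5626 for HK2, 3082 for HK3 and 3653 for HKDC1, and each was expressed as a share of the summed level. In Cas9 control DMSO, HK2 made up 92.4% ± 1.81 (SD, n = 3), HK1 4.31% ± 1.13 and HK3 3.27% ± 1.06 of the sum. In Cas9 control ATRA, HK3 made up 55.0% ± 10.7, HK2 40.0% ± 11.3 and HK1 5.02% ± 0.565. In HK3-null the shares in DMSO were 85.0% ± 1.53 for HK2, 13.5% ± 1.59 for HK3 and 1.49% ± 0.0638 for HK1. In HK3-null ATRA they were 33.8% ± 7.39 for HK2, 62.5% ± 7.25 for HK3 and 3.67% ± 0.142 for HK1. HKDC1 held at most 0.0393% in any library.

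**Figure D4:**
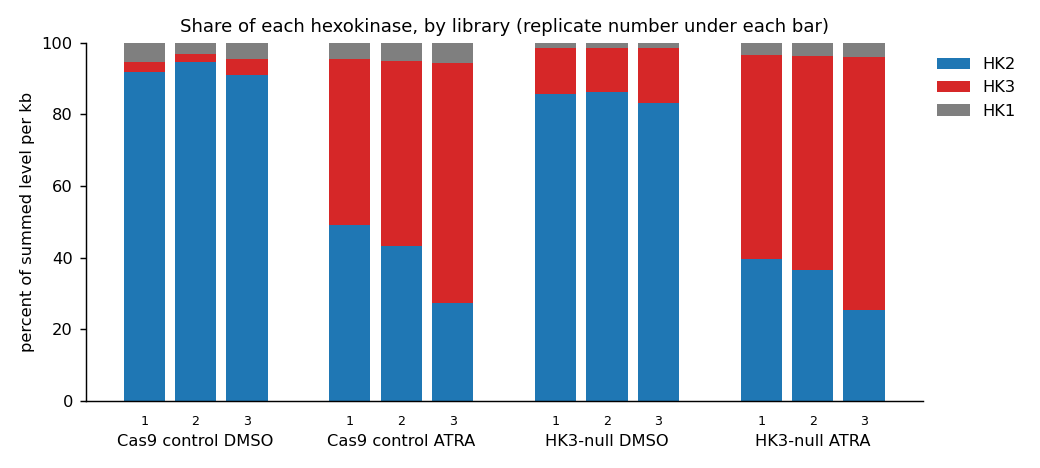
Share of HK2, HK3 and HK1 in the summed hexokinase level per kb of transcript (percent) for each RNAseq library, with the replicate number under each bar; HKDC1, at most 0.0393%, is too small to see. HK2 filled 83.3% to 94.5% of the bars in DMSO, and HK3 filled 46.3% to 70.7% in ATRA.

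In 5 of the 6 ATRA libraries HK3 exceeded HK2 per kb of transcript, by 1.19 to 2.78 times. In Cas9 control ATRA replicate 1 it was 0.940 times HK2. In DMSO it was 0.0256 to 0.183 times HK2. Over all 12 libraries, with treatment labels permuted within genotype, ATRA raised the HK3 share by 50.4 percentage points (exact permutation test, two-sided, p = 0.0050, the smallest these 400 arrangements can give, adjusted p = 0.0100 over 4 tests). The HK2 share fell by 51.8 points (exact permutation p = 0.0050, adjusted p = 0.0100), and the HK1 share rose by 1.45 points (exact permutation p = 0.0200, adjusted p = 0.0267). The HK1 rise was 0.712 points in Cas9 control (exact permutation p = 0.400) and 2.18 in HK3-null (exact permutation p = 0.10). With labels exchanged only between libraries of the same replicate number, the adjusted exact p values were 0.0625 for HK2 and HK3 and 0.0833 for HK1, and none passed. For HK2 and HK3 every such pair changed in the same direction, which gives the smallest unadjusted p this exchange allows. Their failure after adjustment over 4 tests therefore cannot show that the shift is weaker when libraries are paired. Within a genotype, 3 libraries against 3 cannot give an exact two-sided p below 0.10. The HK3 share rose by 51.7 points in Cas9 control and by 49.0 in HK3-null, both at that limit. Between genotypes, the HK3 share was 10.2 points higher in HK3-null in DMSO, without overlap (exact permutation p = 0.10), and 7.54 points higher in ATRA, with overlap (exact permutation p = 0.400). On leaving out 1 library at a time, the latter ranged from 3.18 points without Cas9 control ATRA replicate 1 to 13.5 without replicate 3, and was 3.43 without HK3-null ATRA replicate 3.

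The size of the shares rests on the length. HK2 has a long transcript for a coding length close to that of HK3, 2751 against 2769 bases, and with coding length the HK3 share in ATRA was 41.4% ± 11.2 in Cas9 control and 48.7% ± 8.14 in HK3-null. HK2 then held 54.1% ± 12 and 47.9% ± 8.43. In Cas9 control ATRA the member with the higher mean share thus differed with the length used. In HK3-null ATRA the mean of HK3 was above that of HK2 with both lengths, by less than their SD with coding length. The medians with coding length went the other way, at 51.1% for HK2 and 45.6% for HK3. HK2 had more normalized counts than HK3 in HK3-null ATRA replicates 1 and 2 (1750 and 1430 against 1384 and 1285). In replicate 3 it had fewer (1297 against 1975).

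The summed level per kb of transcript was 878 ± 115 (SD, n = 3) in Cas9 control DMSO and 875 ± 54.0 in Cas9 control ATRA. In HK3-null it was 799.9 ± 64.4 in DMSO and 797 ± 105 in ATRA. All groups overlapped, and the ATRA difference over both genotypes was 0.00 on the log2 scale (exact permutation p = 0.960). Per kb of coding length, however, the sum was lower in ATRA by −0.41 (adjusted exact p = 0.0050), as it was with no division by length. A change of the total is therefore not settled by these values.

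Most tested enzymes that act after hexokinase were lower in HK3-null. Of the 23 glycolysis genes listed, 17 were tested. In DMSO 11 were lower and 1 higher at an adjusted p under 0.05, where 27.1% and 27.9% of all genes were, and the median log2 change was −0.51 against 0.00 over all genes. In ATRA 10 were lower and 1 higher, where 29.5% and 29.6% of all genes were, with a median of −0.69 against 0.01. Called genes, which also changed at least 2-fold, were PFKM and PKM in DMSO and PFKM and ALDOC in ATRA, against 8.21% and 9.93% of all genes called lower. Without Cas9 control ATRA replicate 1 or 2, or HK3-null ATRA replicate 2, 1 gene was called in ATRA.

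PFKM, the muscle form of phosphofructokinase, had 1169, 1016 and 1129 normalized counts in Cas9 control DMSO and 24, 29 and 28 in HK3-null DMSO. In ATRA it had 633, 511 and 665 in Cas9 control and 42, 36 and 43 in HK3-null. The genotypes were far apart in both treatments, with a log2 difference of −5.36 in DMSO (adjusted p = 1.96e-10, limma), −3.90 under ATRA (adjusted p = 2.28e-09, limma) and a standard error of 0.14 in each. PKM, the pyruvate kinase of most tissues, was lower in HK3-null by 1.45 on the log2 scale in DMSO (adjusted p = 2.86e-09, limma). It lies on chromosome 15. With chromosome medians subtracted, 1 glycolysis gene rather than 2 was called in DMSO. The aldolase ALDOC was lower by 1.30 in ATRA (adjusted p = 0.0346, limma). With ATRA, 10 of the 17 were lower and 1 higher in Cas9 control, where 21.3% of all genes were lower and 20.3% higher. In HK3-null 6 were lower and 4 higher, where 25.1% and 24.0% of all genes were. The only called gene in either was the enolase ENO3, with log2 values of 1.46 (adjusted p = 0.0114, limma) and 1.18 (adjusted p = 0.0267, limma); without Cas9 control ATRA replicate 3 in the first, and without HK3-null DMSO replicate 1 or 2 or HK3-null ATRA replicate 3 in the second, no glycolysis gene was called.

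**Figure D5:**
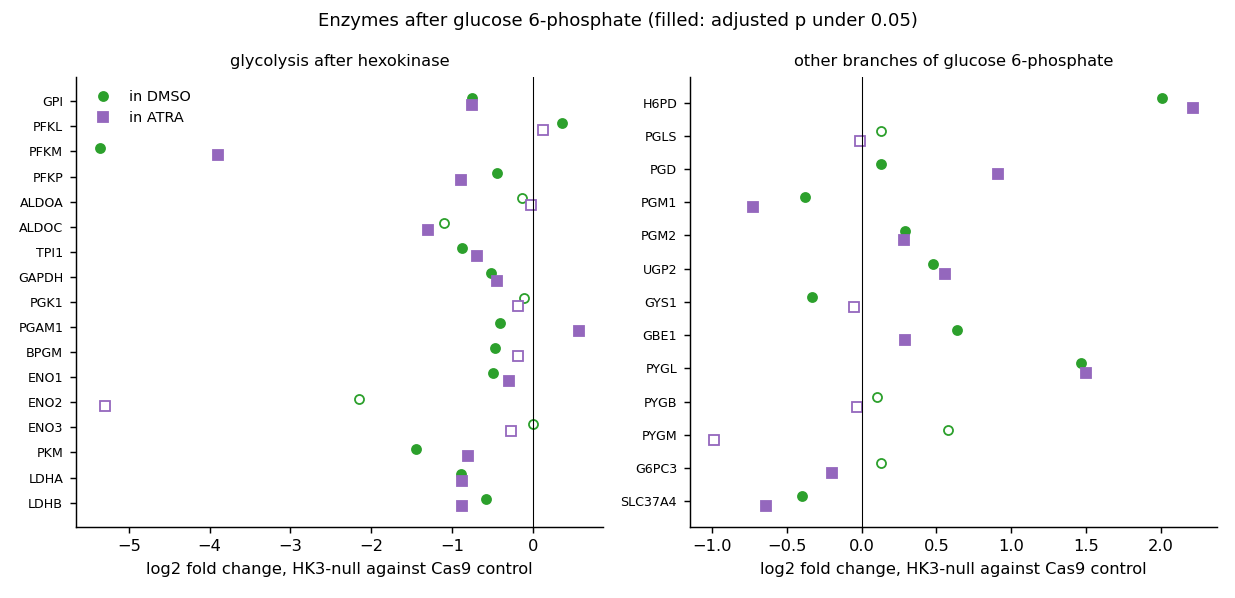
Log2 fold change of HK3-null against Cas9 control in DMSO (circles) and ATRA (squares) for tested genes of glycolysis after hexokinase and of the other branches of glucose 6-phosphate, filled at an adjusted p under 0.05. PFKM lay furthest below 0 in DMSO among the glycolysis genes, H6PD and PYGL were above 0, and the value of ENO2 depends on how a count of 0 is written.

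Genes of the other branches of glucose 6-phosphate, of which 13 of 16 were tested, showed more members higher than lower between genotypes: 6 against 3 in DMSO, where 27.9% of all genes were higher and 27.1% lower, and 6 against 3 in ATRA, where 29.6% and 29.5% were. Their median log2 change was 0.13 in DMSO and −0.01 in ATRA, against 0.00 and 0.01 over all genes. H6PD, an enzyme of the endoplasmic reticulum that oxidizes hexose 6-phosphates, rose with ATRA by 2.87 in Cas9 control and 3.07 in HK3-null, and was higher in HK3-null by 2.01 in DMSO and 2.22 in ATRA, each called. PGD, of the pentose phosphate pathway, rose by 1.10 and 1.87 with ATRA. The glycogen phosphorylase PYGL was higher in HK3-null, by 1.47 in DMSO and 1.5 in ATRA.

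Of 10 other sugar kinases, all were tested. Between genotypes in DMSO 4 were higher and 4 lower at an adjusted p under 0.05, where 27.9% and 27.1% of all genes were. In ATRA 2 were higher and 4 lower, where 29.6% and 29.5% were. Called were 1 higher and 2 lower in DMSO and 1 higher and 3 lower in ATRA, against 19.3% and 21.3% of all genes. With ATRA 2 were called higher in Cas9 control, and 1 higher and 1 lower in HK3-null, against 9.63% and 14.1%. The fructose kinase KHK was lower in HK3-null, by −1.51 in DMSO and −2.98 in ATRA, and fell with ATRA in HK3-null by −1.73. The N-acetylglucosamine kinase NAGK rose with ATRA, by 1.41 in Cas9 control and 1.42 in HK3-null. The ribokinase RBKS was higher in HK3-null, at 1.48 in DMSO and 1.17 in ATRA, and rose with ATRA in Cas9 control by 1.19. The xylulokinase XYLB was lower at −1.07 and −1.39, and the galactokinase GALK2 was called lower in ATRA at −1.04.

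Genes listed as mitochondrial docking partners, a list wider than the VDAC proteins, were mostly lower in HK3-null. The tested genes were VDAC1, VDAC2, VDAC3, SLC25A4, SLC25A5, TSPO and PPIF. Of 7 tested, 5 were lower and 1 higher in both treatments at an adjusted p under 0.05, where 27.1% of all genes were lower and 27.9% higher in DMSO and 29.5% and 29.6% in ATRA. VDAC1, the voltage-dependent anion channel of the outer membrane, had a log2 difference of −1.51 in DMSO (adjusted p = 4.68e-08, limma) and −1.78 in ATRA (adjusted p = 1.29e-08, limma). VDAC1 lies on chromosome 5, whose median was −0.75 and −0.77. VDAC3 went the other way, with a mean of 5256 normalized counts in HK3-null DMSO against 2940 in Cas9 control DMSO. In ATRA its means were 4150 in HK3-null and 2278 in Cas9 control. The adenine nucleotide carrier SLC25A4 was at −1.64 and −2.46, although 1 Cas9 control ATRA library had 1509 normalized counts against 268 to 473 in the other Cas9 control libraries. With ATRA 4 of 7 were lower in each genotype, against 21.3% of all genes in Cas9 control and 25.1% in HK3-null, and none was called.

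Of 9 transcription factors tied to hexokinase genes, all were tested. In Cas9 control 5 were higher and 1 lower with ATRA at an adjusted p under 0.05, where 20.3% and 21.3% of all genes were. In HK3-null 6 were higher and 1 lower, where 24.0% and 25.1% were. Between genotypes 5 were higher and 2 lower in each treatment, against 27.9% and 27.1% in DMSO and 29.6% and 29.5% in ATRA. With ATRA, CEBPB and CEBPE, factors of granulocyte maturation, rose by 2.96 and 1.37 in Cas9 control and by 3.87 and 1.27 in HK3-null, and MYC fell, with log2 values of −2.06 and −2.91. SPI1, which encodes PU.1, passed in every comparison without reaching 2-fold, with log2 values of 0.24 and 0.42 for ATRA and 0.47 and 0.65 between genotypes. CEBPB was called higher in HK3-null in ATRA, at 1.31. EPAS1 was low, with 0, 0 and 1 normalized counts in HK3-null DMSO and 86, 81 and 72 in HK3-null ATRA, and its fitted change depends on how 0 is written.

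The genes whose levels were most like each member over the 12 libraries were sought among 10666 tested genes averaging 50 or more normalized counts. For HK3 they were TNFRSF14 (Pearson r = 0.987), ZNF385A (0.986), CD38 (0.986), FBP1 (0.984) and FGR (0.983). FBP1, fructose 1,6-bisphosphatase, runs the opposite way to phosphofructokinase, and had 40.0 ± 5.29 (SD, n = 3) normalized counts in Cas9 control DMSO, 5112 ± 296 in Cas9 control ATRA, 252 ± 16.2 in HK3-null DMSO and 8801 ± 348 in HK3-null ATRA. For HK2 they were ST3GAL4 (0.993), ENOPH1 (0.992), UTP4 (0.992), TFAP4 (0.991) and PWP1 (0.991). For HK1 they were CHPF (0.969), PI4KA (0.966), GSDMD (0.955), PADI2 (0.949) and SLC22A5 (0.948), of which SLC22A5 was at 0 in all HK3-null DMSO libraries. The libraries form 4 groups, so r mostly describes group means.

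The ATACseq region that lists HK2, chr2:74896787-74897166 (hg38), lies 3.43 kb past the end of the gene. Its signal, the density of fragments, was 5.583 and 1.75 in Cas9 control DMSO and 6.583 and 2.333 in Cas9 control ATRA. In HK3-null it was 5.833 and 4.25 in DMSO and 56.167 and 8.5 in ATRA. Both HK3-null ATRA libraries were above the other libraries, but they differed widely from each other. The region is shown because it is the only deposited region that lists a hexokinase. Accessible sites outside the deposited set cannot be seen here. Its middle 300 bases hold none of the motifs searched.
Region past HK2, chr2:74896827-74897126, plus strand: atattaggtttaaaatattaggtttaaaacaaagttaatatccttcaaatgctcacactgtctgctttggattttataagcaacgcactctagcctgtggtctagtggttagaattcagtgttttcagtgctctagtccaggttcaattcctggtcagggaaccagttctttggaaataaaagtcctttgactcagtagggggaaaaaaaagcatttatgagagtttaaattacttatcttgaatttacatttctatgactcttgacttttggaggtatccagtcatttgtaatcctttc

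All 8286 deposited regions differ at least 1.65-fold between the genotypes in ATRA. The ATRA libraries therefore took part in selecting each region, and no difference of an ATRA group from another group was tested. As a description, the log2(signal + 1) of the HK2 region was higher by 1.96 with ATRA in HK3-null, by 0.67 without HK3-null ATRA replicate 1 and by 3.25 without replicate 2. In Cas9 control the difference with ATRA was 0.24. The mean of the region, 11.4, was under the 25th percentile of 17.1 that the fit required. Fitted without that filter, the genotypes differed in DMSO by 0.49 (standard error 0.71, adjusted p = 0.510, limma), where 83.9% of these regions passed. The spread in this fit was estimated over all 8 ATACseq libraries, so the ATRA libraries enter the standard error. The deposited regions nearest to HK1, HK3 and HKDC1 lay 70.6, 35.3 and 113 kb away and were listed for TSPAN15, UNC5A and SRGN.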

How the data were processed

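The authors mapped directional paired-end RNAseq reads to GRCh38 and deposited the log2 of a scaled, rounded count per gene, with 0 written as the log2 of 0.001. The methods text names RPKM, but no division by length is visible. Which aligner and counter made the RNAseq values is not given in the sources used here. ATACseq signal was deposited by the authors as fragment density of merged MACS2 regions (bwa mem, hg38) after reduction to equal tag numbers, so depth is unknown.

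Deposited log2 values of 12 libraries were fitted with limma 3.58.1 (R 4.3.3, eBayes with trend, 1 mean per group) over 13256 genes with a group mean log2 above 3 in at least 1 group; ATACseq signal as log2(signal + 1). A gene passes where p, adjusted by Benjamini-Hochberg, is under 0.05, and is called if it also changed 2-fold. Shares and sums were compared by exact permutation. Lengths come from GENCODE v44, names and neighbours from RefSeq (GRCh38.p14). From each list and comparison at most 4 called genes with the largest change are named, with the called neighbours and the 5 genes most like each member; further genes were chosen after their values were seen. Members and lists were chosen with earlier results of these data known. Some genes of the lists are not reported here and were left out of their counts. The tests were checked on simulated data.

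Pairing by replicate number was checked 3 times over deviations from group means, asking for every same-number correlation to exceed 0.1. The first check, on the deposited log2 values of 10667 genes, gave −0.148 to 0.353 and failed. A second, on log2(normalized count + 1), was added after that failure and with the blocked fit already seen, and gave 0.178 to 0.631. The last, added because these answers differed, kept the deposited scale but only the 10551 genes above 0 in all libraries, and gave 0.229 to 0.638. The unblocked fit stayed the main one, and results that differ with the block are given beside it.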

Additional observations from a re-analysis of the deposited data

Results flagged for a closer look

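Of 42 named genes with a fitted interaction, 15 had a change with ATRA that differed between the genotypes at an adjusted p under 0.05 (limma). Over all tested genes 9.12% did. Many named genes were picked for their changes in these data or their likeness to a member, so the count cannot be set against that share. HK3 was among the 15, of the 3 tested hexokinases. The values are log2 changes with ATRA in HK3-null minus those in Cas9 control. For HK3 the difference was −1.90. Among the genes most like HK3 it was −4.89 for CD38, −3.77 for FGR, −1.88 for FBP1, −1.16 for TNFRSF14 and −0.56 for ZNF385A, and these were chosen for a pattern like that of HK3. Among the enzymes it was 1.46 for PFKM, 0.65 for PKM, 0.77 for PGD and −1.47 for KHK. Among the transcription factors it was 0.91 for CEBPB and −0.85 for MYC, and for TSPAN17, a neighbour of HK3, it was 0.99. Among the genes most like HK1 it was 0.61 for GSDMD and 13.26 for SLC22A5, the latter set by the value written for 0 in HK3-null DMSO. Groups of 2 or 3 libraries are too small to flag a single library.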

How the results depend on the processing

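Alternatives changed 1 choice at a time, except the criteria of the methods text, which change both p and fold. No result that had passed changed direction. Values that had not passed could change sign on leaving out 1 library. The HK3 genotype difference in ATRA ranged from −0.13 to 0.22 and the HK2 interaction from −0.35 to 0.09. With the replicate block, the HK2 genotype differences (−0.25 and −0.37) and the HK1 interaction (1.04) passed, while the shares over both genotypes (1.45 points for HK1, −51.8 for HK2, 50.4 for HK3) no longer did. For the HK2 and HK3 shares the unadjusted p was already the smallest that test can give, so it cannot show a weaker shift. The check of pairing failed on the deposited values of all genes compared. On the same scale it passed once genes with a count of 0 in any library were left out. That second check was added after the failure, so these results are given under both fits. The HK1 interaction also passed with quantile normalization (1.06) and the thresholds of the methods text, the HK1 genotype difference in ATRA (−0.59) was lost without a filter, and that of HK3 passed with the chromosome median subtracted (0.83).

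With coding length, the changes with ATRA in Cas9 control and HK3-null were −41.2 and −43.2 points for the HK2 share, 39.6 and 40.9 for HK3 and −0.41 and −0.42 (log2) for the sum, and 2.34 for HK1 in HK3-null; with no division they were −41.3, −43.3, 39.7, 41.0, −0.40, −0.42 and 2.33. The genotype differences in DMSO were −1.83, −4.19 and 6.03 points for HK1, HK2 and HK3 with coding length and −1.83, −4.22 and 6.06 without division. The sum over both genotypes was −0.41 in each and passed. With the union of exons, chosen after seeing the data, HK1 shares changed by 1.25 (ATRA in HK3-null), −1.60 and −0.780 points (genotypes in DMSO and ATRA).

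Counts of called list genes, in the order ATRA in Cas9 control, ATRA in HK3-null, genotypes in DMSO and in ATRA, moved most under the criteria of the methods text (unadjusted p under 0.05, 1.5-fold): to 3, 5, 6 and 9 for glycolysis (from 1, 1, 2 and 2), to 5 between genotypes in ATRA for other branches, to 6 and 6 in the middle pair for sugar kinases, to 1, 1, 4 and 4 for docking partners and to 4 and 5 between genotypes for transcription factors. Shares of all genes were not counted under these criteria or the other settings below. The counts therefore describe the lists only and cannot be set against a background. Without a filter glycolysis counts were 0, 0 and 1 (ATRA in either genotype, genotypes in ATRA) and docking partners 1 in DMSO. Fits of 6 libraries gave 0 for glycolysis in Cas9 control and 0 and 2 for transcription factors between genotypes. Quantile normalization gave 0 for glycolysis in HK3-null, 1 for sugar kinases in Cas9 control and 2 for transcription factors in ATRA, as did log2(normalized count + 1) for the last. With chromosome medians subtracted, glycolysis and docking partners had 1 in DMSO and transcription factors 2 in each treatment.

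Leaving out 1 library at a time, the HK1 genotype difference in ATRA ranged from −0.72 to −0.48, the HK1 interaction from 0.77 to 1.25 (passing without Cas9 control DMSO replicate 2), the HK2 genotype difference in ATRA from −0.60 to −0.16, the HK1 share over both genotypes from 1.15 to 1.71 points (lost without Cas9 control DMSO replicate 2) and the sum from −0.05 to 0.04. Counts ranged from 0 to 1 for glycolysis with ATRA in either genotype, 1 to 3 between genotypes in ATRA, 0 to 1 for docking partners with ATRA in HK3-null and 1 to 2 for transcription factors between genotypes. HKDC1 was too low to be tested, and ATACseq has 2 libraries per group. The cause of these shifts was not tested.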
